A study of Homo sapiens with 8 samples.

Results

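The RNA levels of 6 genes by which cells sense and carry sterols, INSIG1, INSIG2, SCAP, SREBF1, SREBF2 and STARD4, were read in the ovarian cancer lines OVSAHO and KURAMOCHI after culture with simvastatin or with L-778123. The 6 genes were set by name, out of 16955 genes tested, and each was read at the probe with the highest mean level over all arrays. These genes and the gene lists below were chosen with earlier results of these data known. Their counts and medians beside those of all probes are therefore descriptions and not independent tests. The genes had 8 probes in all, since SREBF1 and INSIG2 have 2 each, and all 8 probes were well above background on all 8 arrays. All 6 genes therefore passed the filter on dim probes in every group.

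The arrays came from 4 groups of 2: OVSAHO with simvastatin, OVSAHO with L-778123, KURAMOCHI with simvastatin and KURAMOCHI with L-778123. OVSAHO and KURAMOCHI are established ovarian cancer cell lines. Simvastatin inhibits HMG-CoA reductase, the enzyme that makes mevalonate, and so limits both sterols and isoprenoids, while L-778123 inhibits farnesyltransferase and geranylgeranyl transferase, which attach isoprenoids to proteins. The study used the pair of drugs to ask whether statins act on these cells by more than the loss of protein prenylation. Cells without a drug, or with vehicle alone, were not analysed here. Each difference therefore sets simvastatin against L-778123, and which of the drugs moved a gene cannot be told apart. How much drug the cells on the arrays received, and for how long, is not given in the sources used here. Nothing in the labels states that the 2 arrays of a group came from separate cultures, so the p-values measure only the spread between these arrays, which may be technical.

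Levels are given as the log2 of the scanner's intensity minus that of the 75th percentile of the same array, so that 0 is the 75th percentile and a difference of 1 is 2-fold. That percentile ranged from 324 to 437 in intensity over the arrays, 51.8% to 57.5% of the probes exceeded background clearly, and 0 spots were saturated. All arrays lay on 1 slide with each group at positions of its own, so that a group cannot be told apart from its position. The markers of serous carcinoma and epithelium fixed for a check of the labels, PAX8, WT1, MUC16, EPCAM, KRT7, KRT8, KRT18 and CDH1, were well above background on all 8 arrays. Of 6 markers of other cell types, PECAM1 and DCN were well above background on 0 arrays, CD3E on 1, COL1A1 on the 4 KURAMOCHI arrays, and PTPRC and VWF on all 8. The levels of PTPRC averaged -2.86 in OVSAHO and -1.78 in KURAMOCHI, and those of VWF -2.23 and -1.11. MUC16 averaged 1.72 in OVSAHO and -2.59 in KURAMOCHI, and CDH1 3.54 and -2.23. In KURAMOCHI both therefore lay below PTPRC and VWF. The part of the markers of other cell types in the results was not tested. In RNA of whole cultures, fewer cells of a type and less RNA per cell cannot be told apart.

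The genes form the core of the feedback that holds the sterol content of membranes steady. SREBF1 and SREBF2 encode the membrane-bound precursors of the transcription factors SREBP-1, which acts mostly on fatty acid synthesis, and SREBP-2, which acts mostly on cholesterol synthesis and uptake. SCAP binds these precursors and escorts them from the endoplasmic reticulum (ER) to the Golgi, where proteases release the active factor. When sterols are plentiful, INSIG1 or INSIG2 binds SCAP and holds the complex in the ER. INSIG1 and SREBF2 are themselves known targets of SREBPs, as is STARD4, which encodes a soluble protein that carries sterols between membranes.

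The promoter sequences of the genes that differed most between the drugs are shown because SREBPs act through short sequences near the start of their target genes. All 6 genes matched RefSeq's promoter table (GRCh38.p14), and 7 windows of 250 bases before the start were searched, 2 of them for INSIG2. The search used 9 letter patterns on both strands: TCACCCCAC, TCACNCCAC, TCACNCNAC and CACCCCAC for the sterol regulatory element, some contained in others, ATTGG and CCATTGG for the CCAAT box, CACGTG and TCACNTGA for the E-box, and GGGCGG for the GC box. Longer forms of the sterol regulatory element, tried at first, are not shown. Capitals mark TCACCCCAC, ATTGG and TCACNTGA on either strand, and these 3 patterns were chosen for display after the windows had been searched.

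SREBF2, chr22:41832855-41833104, plus strand: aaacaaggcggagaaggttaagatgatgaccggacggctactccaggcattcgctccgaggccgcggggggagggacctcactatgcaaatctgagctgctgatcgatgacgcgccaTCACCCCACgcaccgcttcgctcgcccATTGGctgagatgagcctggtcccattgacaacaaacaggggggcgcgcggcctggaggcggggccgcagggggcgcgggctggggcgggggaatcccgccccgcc

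INSIG1, chr7:155297628-155297877, plus strand: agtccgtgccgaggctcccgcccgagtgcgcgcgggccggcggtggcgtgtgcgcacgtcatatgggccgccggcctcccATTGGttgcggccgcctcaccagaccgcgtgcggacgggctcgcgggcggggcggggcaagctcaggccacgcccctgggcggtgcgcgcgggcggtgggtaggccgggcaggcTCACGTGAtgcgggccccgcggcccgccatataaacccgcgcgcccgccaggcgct

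STARD4, chr5:111512536-111512785, minus strand: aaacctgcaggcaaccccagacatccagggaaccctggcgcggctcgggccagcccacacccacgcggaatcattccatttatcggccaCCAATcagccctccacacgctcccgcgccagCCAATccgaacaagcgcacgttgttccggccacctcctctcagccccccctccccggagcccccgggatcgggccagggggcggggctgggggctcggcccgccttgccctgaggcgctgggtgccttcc

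SREBF1, chr17:17836987-17837236, minus strand: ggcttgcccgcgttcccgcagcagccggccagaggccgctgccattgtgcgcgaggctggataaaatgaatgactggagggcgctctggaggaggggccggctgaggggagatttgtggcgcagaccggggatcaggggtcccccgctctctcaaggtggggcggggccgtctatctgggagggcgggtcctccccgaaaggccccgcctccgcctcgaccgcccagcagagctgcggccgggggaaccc

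The SREBF2 window held TCACCCCAC from 133 to 125 bases before the start, a pattern found in 127 of 35116 windows of the same length (0.362%), and ATTGG from 106 to 102 bases before it. ATTGG on either strand stood in 32.0% of all windows. The INSIG1 window held ATTGG from 170 to 166 bases before the start and TCACNTGA from 56 to 49 bases before it, the latter a pattern of 3.20% of windows. STARD4 held ATTGG on its other strand at 161 to 157 and 130 to 126 bases before the start. The SREBF1 window and those of SCAP and INSIG2 held none of the 3 patterns. Sequence outside these windows, including any other start of SREBF1, was not searched. The looser TCACNCCAC, TCACNCNAC and CACCCCAC, in 0.883%, 2.02% and 2.43% of all windows, matched only this site of SREBF2, and CCATTGG, in 4.86%, matched the ATTGG sites of INSIG1 and SREBF2. CACGTG stood in the windows of INSIG1 and SCAP and in 6.34% of all windows, and GGGCGG, present in 42.6% of all windows, stood in all 7 windows of the 6 genes. A match is a description of the letters and does not show binding.

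In both cell lines INSIG1, STARD4 and SREBF2 were higher with simvastatin than with L-778123, and SREBF1 at its brighter probe was lower. In OVSAHO, 4 of the 6 genes were higher and 1 was lower at an adjusted p under 0.05 (limma), where 23.0% and 25.1% of all probes tested were. With a fold change of at least 2 as well, 1 gene, INSIG1, was higher and 1, SREBF1, was lower, against 4.77% and 6.19% of all probes. In KURAMOCHI, 3 were higher and 1 was lower by adjusted p, where 14.0% and 17.3% of all probes were, and with the 2-fold threshold 2 genes, INSIG1 and STARD4, were higher and 0 lower, against 2.05% and 3.55%. The median log2 fold change of the 6 genes was 0.49 in OVSAHO and 0.44 in KURAMOCHI, and that of all probes tested was 0.014 and 0.00096. At the brighter probe of each gene the arrays of the 2 drugs did not overlap for any of the 6 genes in either line, as was so for 77.1% of all probes tested in OVSAHO and 69.9% in KURAMOCHI, and not all of these differences passed the test. For some genes below, the arrays of the lines or of all 4 groups are also said not to overlap. How common that was over all probes was not computed, so it only describes the gene.

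**Figure D1:**
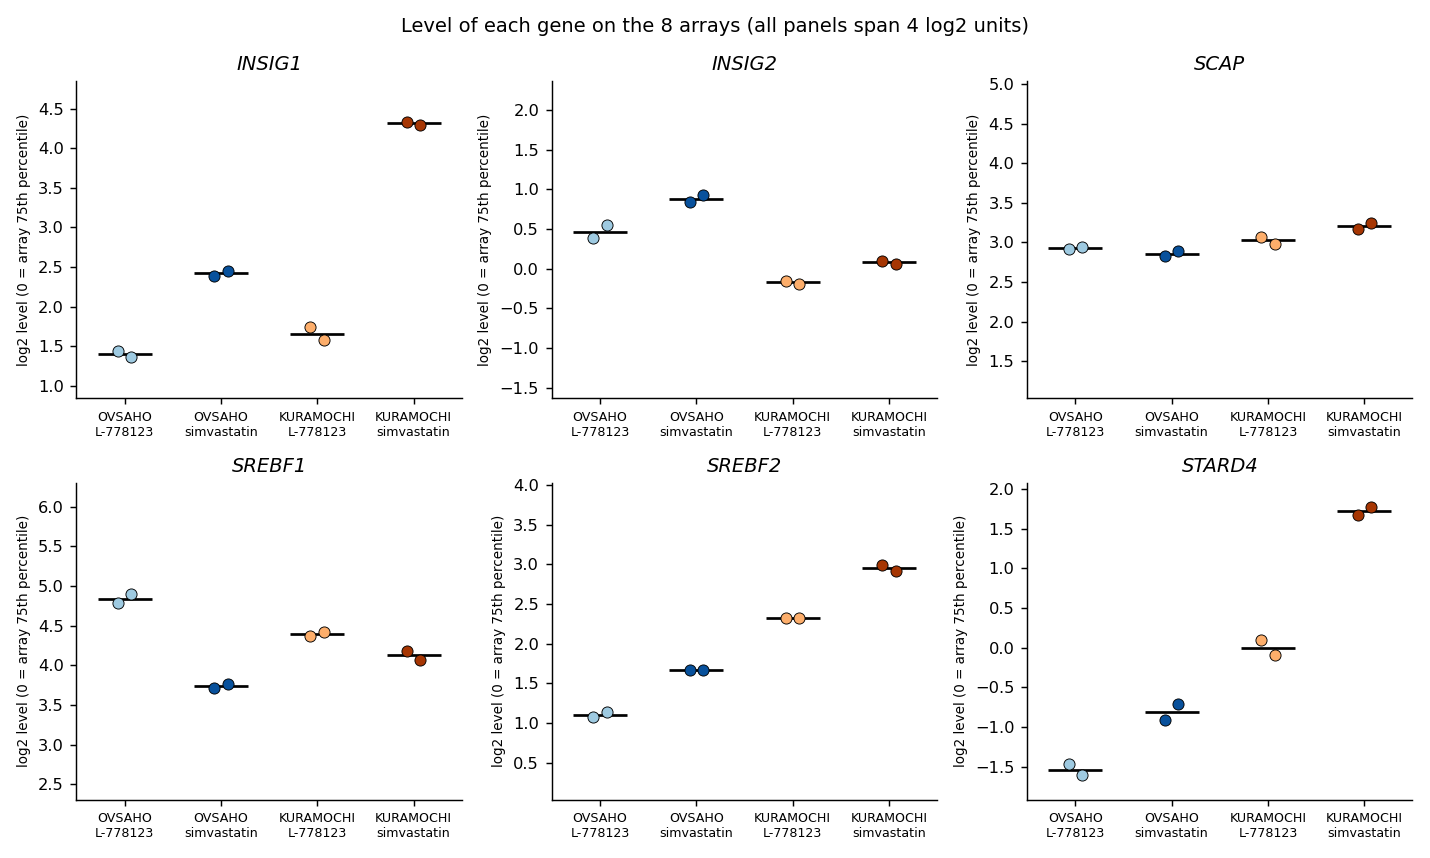
Level of each of the 6 genes on each array, as log2 intensity relative to the 75th percentile of the array, by cell line and drug. Each point is 1 array, each line is the mean of the 2 arrays of a group, and every panel spans 4 log2 units. INSIG1 and STARD4 show the widest spans, with KURAMOCHI simvastatin arrays at the top, and SCAP the narrowest, at 0.41 over the 8 arrays.

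INSIG1, the retention protein that is itself induced by SREBPs, showed the largest rise of the 6 with simvastatin over L-778123 in each line. In OVSAHO its level was 2.39 and 2.46 on the simvastatin arrays and 1.44 and 1.36 on the L-778123 arrays. In KURAMOCHI it was 4.33 and 4.29 with simvastatin and 1.74 and 1.58 with L-778123. The KURAMOCHI simvastatin arrays stood above all others, and no groups overlapped. The difference between drugs was 1.02 ± 0.075 (log2, SE) in OVSAHO, or 2.03-fold (limma, adjusted p = 0.000257), and 2.66 ± 0.075 in KURAMOCHI, or 6.30-fold (adjusted p = 0.000106). The OVSAHO difference lay close to the 2-fold threshold: it was 0.99 without OVSAHO simvastatin replicate 2, 0.99 without OVSAHO L-778123 replicate 2, and 0.98 after another background correction (normexp), each just under 2-fold with an adjusted p still under 0.05.

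The INSIG1 contrast was smaller in OVSAHO than in KURAMOCHI, with a difference of -1.63 on the log2 scale (95% interval -1.90 to -1.37, adjusted p = 0.000734 in limma). It was the largest of 3 such differences among the 6 genes, all with the OVSAHO contrast the lower. By that test 11.7% of all probes had a lower contrast in OVSAHO and 11.2% a higher one. The others were those of STARD4 and of SREBF1 at its brighter probe. For SREBF1 this was a larger fall, not a smaller rise, and its dimmer probe gave 0.78, the opposite sign. The lines differed more in INSIG1 with simvastatin than with L-778123, as the difference between its contrasts requires. With simvastatin the mean was 1.89 lower in OVSAHO, a 3.71-fold difference (adjusted p = 6.09e-06). With L-778123 the mean was 0.26 lower in OVSAHO (adjusted p = 0.0233). Over 19 alternatives this difference ran from -0.34 to -0.18, and in 5 of them it no longer passed the test. Among these were the fits without OVSAHO L-778123 replicate 2 and without KURAMOCHI L-778123 replicate 1.

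INSIG2, the second retention protein, differed less between the drugs than INSIG1 and was higher in OVSAHO than in KURAMOCHI. At its brighter probe the level in OVSAHO was 0.84 and 0.93 with simvastatin and 0.39 and 0.55 with L-778123. In KURAMOCHI it was 0.10 and 0.057 with simvastatin and -0.15 and -0.19 with L-778123. Every OVSAHO array was above every KURAMOCHI array, whichever the drug. INSIG2 rose in OVSAHO by 0.42 ± 0.075 with simvastatin against L-778123 (limma, adjusted p = 0.00650). The KURAMOCHI difference of 0.25 missed the test (adjusted p = 0.0524), and it passed without OVSAHO L-778123 replicate 1 or without replicate 2 of that group (adjusted p = 0.0393 for each), which alter only the shared spread. The difference between the 2 contrasts was 0.16 with an interval of -0.10 to 0.43 (adjusted p = 0.322).

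The dimmer INSIG2 probe repeated the difference between lines but not that between drugs. Its level in OVSAHO was 0.19 and 0.16 with simvastatin and 0.17 and -0.00069 with L-778123, and in KURAMOCHI it was -0.49 and -0.63 with simvastatin and -0.59 and -0.69 with L-778123. The drugs overlapped in both lines at this probe. Its drug differences were 0.093 (adjusted p = 0.423 in limma) and 0.081 (adjusted p = 0.527). The lines differed by 0.80 at the brighter and 0.74 at the dimmer probe with simvastatin, and by 0.64 and 0.73 with L-778123, each higher in OVSAHO with an adjusted p of 0.000591 or less.

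SCAP, the escort of the SREBP precursors, varied least of the 6 genes. Its level was 2.83 and 2.89 with simvastatin and 2.92 and 2.94 with L-778123 in OVSAHO, and 3.17 and 3.24 with simvastatin and 3.06 and 2.99 with L-778123 in KURAMOCHI. The arrays of the 2 drugs were close to each other in both lines and did not overlap. The drug difference was -0.070 in OVSAHO (95% interval -0.22 to 0.081, adjusted p = 0.383 in limma) and 0.18 in KURAMOCHI (0.032 to 0.33, adjusted p = 0.0702). The KURAMOCHI difference passed the test after quantile normalization (0.22, adjusted p = 0.0332) and in the authors' table (0.22, adjusted p = 0.0331). The OVSAHO level of SCAP minus that of KURAMOCHI was -0.35 with simvastatin (adjusted p = 0.00288) and -0.095 with L-778123 (adjusted p = 0.212). The difference between the 2 drug contrasts, -0.25 with an interval of -0.46 to -0.040, did not pass after adjustment (adjusted p = 0.0901).

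SREBF2, the source of SREBP-2, rose by nearly the same amount in each line. Its level in OVSAHO was 1.66 and 1.67 with simvastatin and 1.07 and 1.14 with L-778123. In KURAMOCHI it was 2.99 and 2.91 with simvastatin and 2.33 and 2.32 with L-778123. All KURAMOCHI arrays were above all OVSAHO arrays, and within each line simvastatin was above L-778123. The drug difference was 0.56 ± 0.057 in OVSAHO, or 1.48-fold (limma, adjusted p = 0.000787), and 0.63 ± 0.057 in KURAMOCHI, or 1.55-fold (adjusted p = 0.00121). The 2 contrasts differed by -0.066 with an interval of -0.27 to 0.13 (adjusted p = 0.603). Between lines SREBF2 was 2.43-fold lower in OVSAHO with simvastatin (adjusted p = 8.93e-06) and 2.33-fold lower with L-778123 (adjusted p = 1.13e-05).

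STARD4, the sterol carrier, followed the same order of groups as SREBF2 over a wider span. Its level in OVSAHO was -0.91 and -0.71 with simvastatin and -1.47 and -1.61 with L-778123, and in KURAMOCHI it was 1.68 and 1.77 with simvastatin and 0.096 and -0.093 with L-778123. The 4 groups stood apart without overlap, and the 8 arrays spanned 3.38. The drug difference was 0.73 ± 0.11 in OVSAHO, or 1.66-fold (limma, adjusted p = 0.00301), and 1.72 ± 0.11 in KURAMOCHI, or 3.31-fold (adjusted p = 0.000398). The contrast was smaller in OVSAHO, with a difference of -0.998 (interval -1.37 to -0.62, adjusted p = 0.00862). STARD4 was 5.81-fold lower in OVSAHO than in KURAMOCHI with simvastatin (adjusted p = 7.33e-06) and 2.91-fold lower with L-778123 (adjusted p = 5.16e-05).

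The antisense transcript STARD4-AS1, measured by 2 probes of its own, did not follow STARD4 in OVSAHO. Its log2 differences between simvastatin and L-778123 were -0.96 and -0.87 there (limma, adjusted p = 0.0737 and 0.0468), and 0.53 and 0.24 in KURAMOCHI, which did not pass (adjusted p = 0.310 and 0.558). The difference of the 2 contrasts did not pass at either probe (adjusted p = 0.0906 and 0.101). STARD4-AS1 was looked at after the values of STARD4 were seen.

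**Figure D2:**
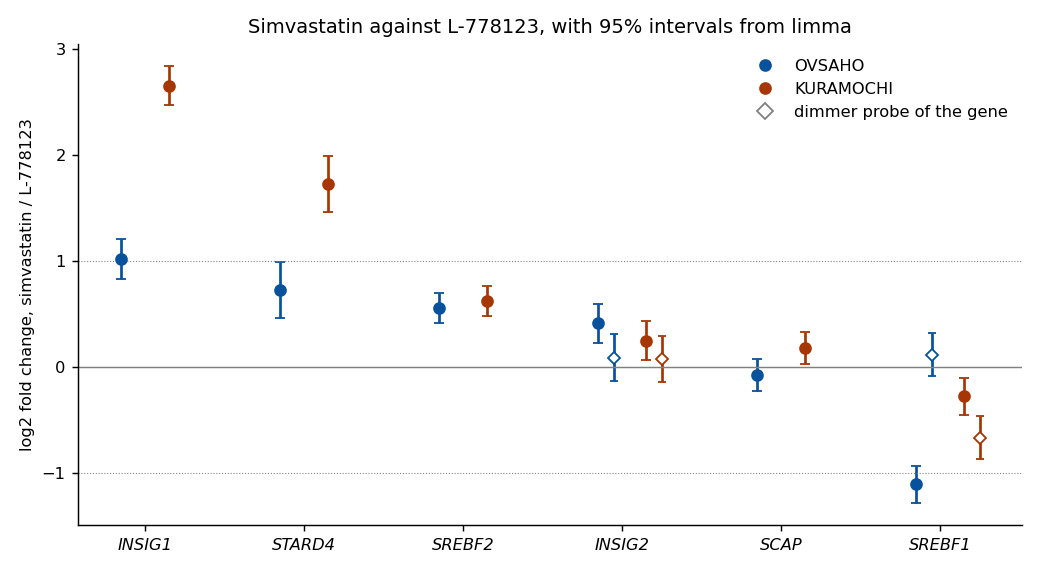
Log2 fold change of simvastatin against L-778123 for each gene in OVSAHO and KURAMOCHI, with bars for the 95% interval from limma and open diamonds for the dimmer probe of INSIG2 and of SREBF1. Dotted lines mark 2-fold. INSIG1 lies at 1.02 and 2.66 and STARD4 at 0.73 and 1.72, with the KURAMOCHI value above the OVSAHO value for both, while the values of SREBF2 nearly coincide and the probes of SREBF1 part in each line.

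SREBF1, the source of SREBP-1, was the only gene of the 6 that fell with simvastatin against L-778123 by adjusted p, and its 2 probes disagreed. At the brighter probe the level in OVSAHO was 3.71 and 3.76 with simvastatin and 4.78 and 4.90 with L-778123. In KURAMOCHI it was 4.18 and 4.07 with simvastatin and 4.38 and 4.42 with L-778123. Within each line all simvastatin arrays were below all L-778123 arrays. The drug difference was -1.10 ± 0.071 in OVSAHO, a 2.15-fold fall (limma, adjusted p = 0.000161), and -0.27 ± 0.071 in KURAMOCHI, a 1.21-fold fall (adjusted p = 0.0349). The KURAMOCHI fall did not pass without OVSAHO simvastatin replicate 1 or without replicate 2 (adjusted p = 0.0575 for each), without KURAMOCHI simvastatin replicate 1 (0.0637) or 2 (0.147), or without KURAMOCHI L-778123 replicate 1 (0.0937) or 2 (0.135).

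At the dimmer SREBF1 probe the fall stood in KURAMOCHI and not in OVSAHO. The level in OVSAHO was -0.11 and 0.059 with simvastatin and -0.19 and -0.10 with L-778123, and in KURAMOCHI it was -0.074 and -0.092 with simvastatin and 0.64 and 0.52 with L-778123. The drugs overlapped in OVSAHO and stood apart in KURAMOCHI. The drug difference was 0.12 in OVSAHO (interval -0.085 to 0.32, adjusted p = 0.279 in limma) and -0.66 in KURAMOCHI (-0.87 to -0.46, adjusted p = 0.00323). The OVSAHO contrast minus the KURAMOCHI contrast was -0.83 at the brighter probe (-1.08 to -0.58, adjusted p = 0.00431) and 0.78 at the dimmer probe (0.49 to 1.07, adjusted p = 0.00823).

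The difference between lines in SREBF1 also turned with the probe. With L-778123 the OVSAHO mean was 0.44 above that of KURAMOCHI at the brighter probe (limma, adjusted p = 0.00203) and differed by -0.72 at the dimmer probe (adjusted p = 0.000445). With simvastatin the difference was -0.39 (adjusted p = 0.00335) and 0.059 (adjusted p = 0.551). When the median of the 2 probes was used, the OVSAHO drug difference was -0.49 (adjusted p = 0.00272) and the difference between the contrasts of the lines was -0.025 (adjusted p = 0.883). Both probes carry the same transcript identifier in the files, and which part of the transcript each reads was not analysed here.

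**Figure D3:**
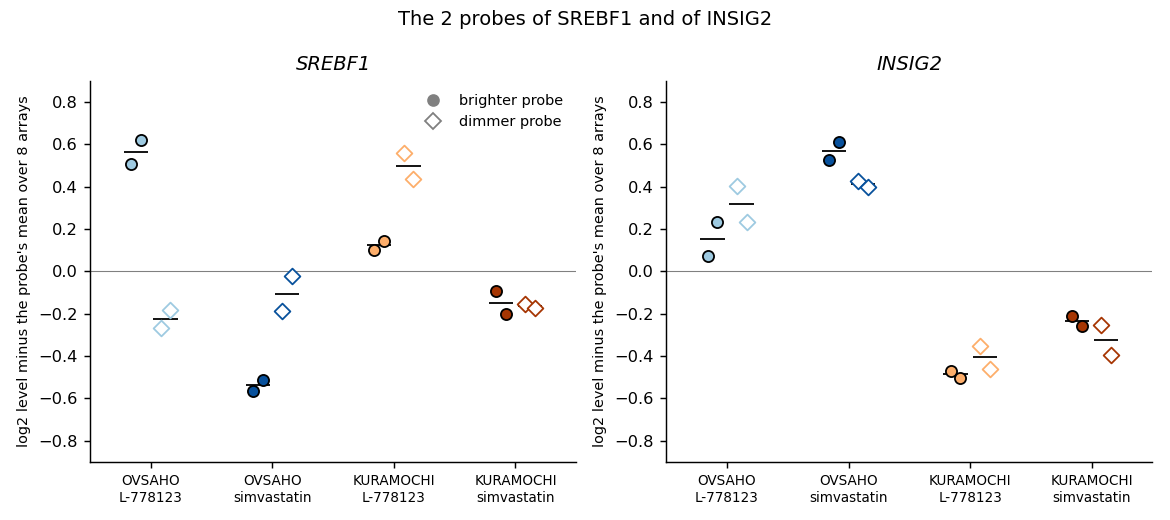
Level of the brighter (filled circles) and dimmer (open diamonds) probe of SREBF1 and INSIG2 on each array, as log2 intensity minus the mean of that probe over the 8 arrays, by cell line and drug, with lines at the mean of each group. The SREBF1 probes part most in OVSAHO with L-778123, where the brighter probe is high and the dimmer probe low, while both INSIG2 probes are higher in OVSAHO than in KURAMOCHI.

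Between the lines, with simvastatin, 1 of the 6 genes was higher in OVSAHO than in KURAMOCHI and 5 were lower by adjusted p, where 36.6% and 34.3% of all probes were, and 0 and 3 passed 2-fold as well, against 17.9% and 16.7%. INSIG2 was the gene higher in OVSAHO, and INSIG1, STARD4 and SREBF2 were the 3 that were lower by at least 2-fold. With L-778123, 2 were higher and 3 lower, against 35.7% and 33.8% of all probes, and 0 and 2 passed 2-fold, against 17.2% and 15.9%. STARD4 and SREBF2 were lower by at least 2-fold in OVSAHO with either drug. The counts by adjusted p include SREBF1 at its brighter probe, lower with simvastatin and higher with L-778123. Its dimmer probe gave 0.059 with simvastatin (limma, adjusted p = 0.551) and -0.72 with L-778123 (adjusted p = 0.000445), so these counts depend on the probe. These comparisons share arrays with the drug comparisons. The median difference of the 6 genes was -0.84 with simvastatin and -0.18 with L-778123, beside 0.050 and 0.025 over all probes.

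The 4 groups were then ordered by the mean level of each gene, and 14 of 18 pairs of neighbours differed (limma, adjusted p under 0.05). STARD4 and SREBF2 ran from KURAMOCHI simvastatin through KURAMOCHI L-778123 and OVSAHO simvastatin to OVSAHO L-778123, and every step differed. INSIG1 ran from KURAMOCHI simvastatin to OVSAHO simvastatin, KURAMOCHI L-778123 and OVSAHO L-778123, so that the drug and not the line came first in its order. The step between its middle groups was 0.76 (adjusted p = 0.000208). INSIG2 ran from OVSAHO simvastatin to OVSAHO L-778123, KURAMOCHI simvastatin and KURAMOCHI L-778123, and its last 2 groups did not pass the test. SREBF1, at its brighter probe, ran from OVSAHO L-778123 to OVSAHO simvastatin with the KURAMOCHI groups between them. None of the 3 steps of SCAP passed the test. Of all probes, 48.1% differed between the drugs in OVSAHO and 31.4% in KURAMOCHI, 70.9% between the lines with simvastatin and 69.5% with L-778123, 74.0% between OVSAHO simvastatin and KURAMOCHI L-778123, and 71.3% between OVSAHO L-778123 and KURAMOCHI simvastatin. These shares are for fixed pairs of groups. The share of neighbours that differ, with each probe put in its own order, was not computed, so the count of 14 of 18 is only a description.

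Over the 8 arrays, which share 2 lines and 2 drugs, the levels of SREBF2 and STARD4 had a Pearson correlation of 0.98, those of INSIG1 and STARD4 of 0.87, and those of INSIG1 and SREBF2 of 0.78. INSIG1 and SREBF1 had one of -0.52. Among 7576 genes well above background on all arrays and spanning at least 1, those most like INSIG1 were DNALI1, an axonemal dynein chain (0.991), UCN, the peptide hormone urocortin (0.989), and MVK, mevalonate kinase (0.987). Those most like INSIG2 were PPP1R16A, SMIM10L2B-AS1 and SNHG29 (0.997, 0.997 and 0.996). Those most like SREBF1 were CCDC34 (0.998), BCL2, the inhibitor of apoptosis (0.993), and BEND3 (0.992). SIX5, SMAD9 and PHLDB3 were most like SREBF2, each with 0.998, and HSD11B2, which inactivates cortisol, ODAD4 and the receptor kinase TYRO3 were most like STARD4 (0.996, 0.995 and 0.994). SCAP spanned less than 1, and no gene was named for it. These correlations are descriptions over the same 8 arrays and carry no test.

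No gene of a list drawn around SREBP cleavage and transport out of the ER passed the test as higher in either line. The list also held genes that are neither proteases nor coat subunits, among them ERLIN2. Of 16 measured genes, 0 were higher and 10 were lower with simvastatin in OVSAHO by adjusted p (limma), with a median of -0.29 on the log2 scale, and in KURAMOCHI 0 were higher and 2 were lower, with a median of -0.11. Over all probes 23.0% were higher and 25.1% lower in OVSAHO and 14.0% and 17.3% in KURAMOCHI, so that the count of 2 in KURAMOCHI was near or below the general share. None of the 16 reached 2-fold. Among genes named after their values were seen, SPRING1, needed for the activity of the site-1 protease, fell by 0.75 in OVSAHO (adjusted p = 0.000452), and ERLIN2 and the coat subunit SEC23B fell in both lines, by 0.46 and 0.44 in OVSAHO and by 0.31 and 0.37 in KURAMOCHI. The proteases MBTPS1 and MBTPS2 passed the test in neither line, with differences from -0.19 to 0.17.

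Of 14 measured genes that degrade INSIG proteins and the reductase at the ER, 4 were higher and 4 lower in OVSAHO and 2 higher and 2 lower in KURAMOCHI, with medians of -0.049 and 0.047. These counts were near the shares over all probes, 23.0% and 25.1% in OVSAHO and 14.0% and 17.3% in KURAMOCHI, and show nothing about the list. RNF145, a ubiquitin ligase of the ER named after its values were seen, rose in both lines, by 0.59 in OVSAHO and by 0.37 in KURAMOCHI. VCP and UFD1, which extract proteins from the ER membrane and were also named after their values were seen, fell in both lines by 0.24 to 0.40. No gene of this list reached 2-fold.

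No sterol carrier or storage gene other than STARD4 passed both thresholds in either line. Of 15 measured of 16 listed, 6 were higher and 2 lower in OVSAHO and 7 were higher and 2 lower in KURAMOCHI, with medians of 0.14 and 0.22. Over all probes the shares higher were 23.0% and 14.0% in the respective lines, and the shares lower 25.1% and 17.3%. LIPA, the lysosomal lipase that frees cholesterol from lipoproteins, and NPC1, which exports it from lysosomes, rose in both lines, LIPA by 0.53 and 0.57 and NPC1 by 0.36 and 0.34. Other genes of the list went other ways. TMEM97 fell by 0.77 in OVSAHO, with a difference of 0.031 in KURAMOCHI, and STARD5 fell by 0.76 in KURAMOCHI. GRAMD1C rose by 0.39 in OVSAHO and fell by 0.41 in KURAMOCHI. All of these genes were named after their values were seen. In the lipoprotein receptor family and its trafficking, 3 of 10 genes were higher and 6 lower in OVSAHO, and 2 were higher and 2 lower in KURAMOCHI, with medians of -0.23 and -0.069, beside the same shares over all probes, which the KURAMOCHI counts and the count higher in OVSAHO lay near. VLDLR, a lipoprotein receptor, rose by 1.14 ± 0.066 in OVSAHO (adjusted p = 0.000117), and DAB2, a clathrin adaptor, fell by 1.07 ± 0.081 there (adjusted p = 0.000281). In KURAMOCHI the differences were -0.17 (adjusted p = 0.103) and -0.039 (adjusted p = 0.741), and the contrasts differed between lines for both genes (adjusted p = 0.000930 and 0.00338). Both genes were far dimmer in OVSAHO than in KURAMOCHI. OVSAHO minus KURAMOCHI, VLDLR differed by -4.12 with simvastatin and -5.43 with L-778123. DAB2 differed by -6.75 and -5.72. How far either gene stood above background in OVSAHO is not given here.

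The enzymes of cholesterol synthesis, most of them SREBP-2 targets, rose together in KURAMOCHI. There 17 of 19 were higher with simvastatin than with L-778123 by adjusted p and 0 lower, 12 of them by at least 2-fold, with a median of 1.04 on the log2 scale, where 14.0% of all probes were higher, 2.05% by at least 2-fold. In OVSAHO 9 were higher and 3 lower, only LSS by at least 2-fold, with a median of 0.21, where 23.0% and 25.1% of all probes were. HMGCS1, HMG-CoA synthase, rose by 1.57 in KURAMOCHI and 0.40 in OVSAHO, and DHCR7, which makes cholesterol in the last step, and IDI1, the isopentenyl isomerase, rose by 1.52 and 1.30 in KURAMOCHI with differences of -0.12 and -0.0094 in OVSAHO. LSS, lanosterol synthase, named after its values were seen, rose by 1.01 in KURAMOCHI and 1.09 in OVSAHO. The drug contrast was lower in OVSAHO than in KURAMOCHI for 16 of the 19 enzymes by adjusted p, as it was for INSIG1 and STARD4, where 11.7% of all probes were. In fatty acid synthesis 8 of 12 genes were higher and 0 lower in KURAMOCHI, and 2 were higher and 6 lower in OVSAHO, with medians of 0.55 and -0.11, beside the shares over all probes of 14.0% and 17.3% in KURAMOCHI and 23.0% and 25.1% in OVSAHO. SCD, stearoyl-CoA desaturase, rose by 1.43 in KURAMOCHI and fell by 0.56 in OVSAHO, and was the only gene of this list past 2-fold.

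**Figure D4:**
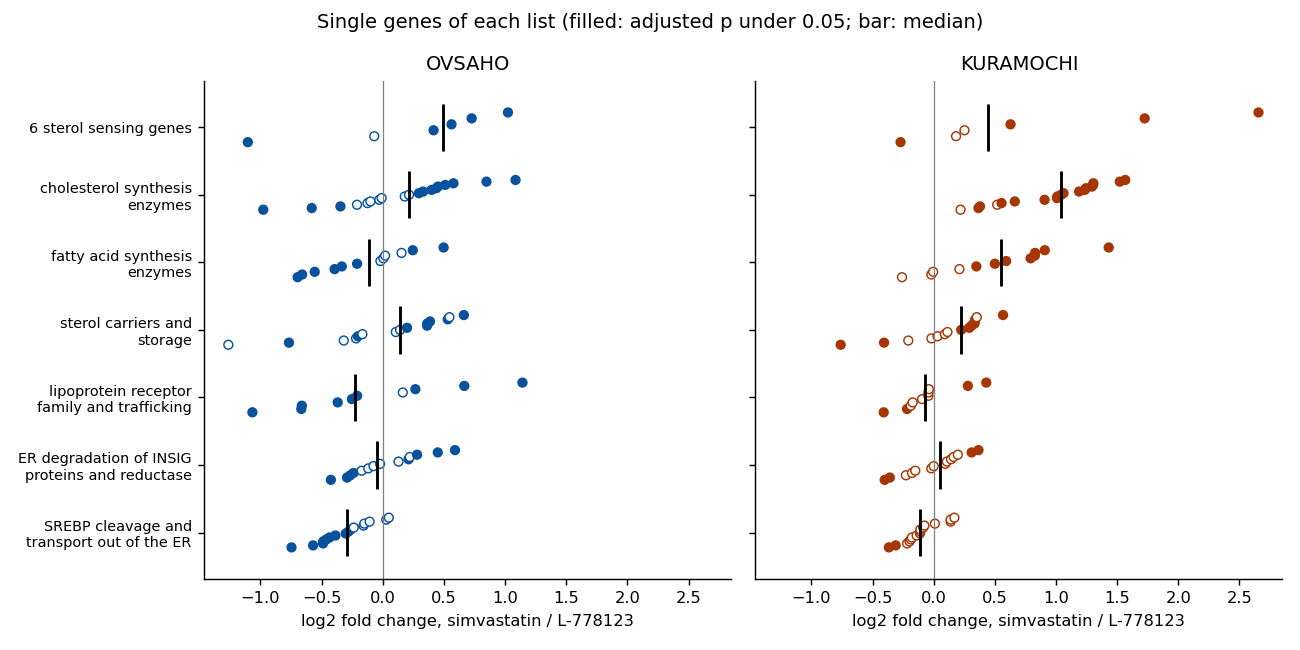
Log2 fold change of simvastatin against L-778123 for each measured gene of the 6 sterol sensing genes and of each list, in OVSAHO (left) and KURAMOCHI (right). Each circle is 1 gene at its brightest probe, filled where the adjusted p from limma is under 0.05, and each bar is the median of a list. The median of cholesterol synthesis enzymes lies at 0.21 in OVSAHO and 1.04 in KURAMOCHI, and that of the genes of SREBP cleavage and transport at -0.29 and -0.11.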

How the data were processed

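Total RNA of both lines after either drug was hybridized to 8 one-color Agilent SurePrint G3 arrays, 2 per group, and grouped by the labels. The authors extracted the images with Agilent Feature Extraction 11.5.1.1 and deposited, per spot, a processed signal, which is an intensity corrected for background within the array, together with flags. They also deposited a table of intensity on a linear scale, equal in distribution on all arrays and so quantile normalized, which was used as an alternative.

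Control and outlier spots (58 to 99 per array) were left out, spots of a probe were averaged on the log2 scale, and the 75th percentile over probes was subtracted. The test covered 33753 of 58162 probes, those that cleared background on the 2 arrays of any group, and used limma 3.58.1 in R 4.3.3 (1 mean per group, eBayes, Benjamini-Hochberg over all probes tested). Calls needed an adjusted p under 0.05 and, except for the difference between the drug contrasts of the lines, a fold change of at least 2. The fit was tested on simulated data. Names came from a RefSeq table, which named 24768 of 50069 identifiers. Genes named are the 6 members, the 3 genes most correlated with each member spanning at least 1, and up to 3 called genes per list with the largest difference. Others are marked where they stand. The members and lists were chosen with earlier results of these data known. Alternatives were other filters, background corrections, normalizations, thresholds, probes and fits, and each array left out. Normexp took the median signal of a spot, since a mean was not used here. Figures were drawn with matplotlib 3.10.9. Some genes are not reported here.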

Additional observations from a re-analysis of the deposited data

Results flagged for a closer look

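The contrast of simvastatin against L-778123 differed between OVSAHO and KURAMOCHI, by limma's test of the difference itself, for 3 of the 6 genes, all lower in OVSAHO, where 11.7% of all probes were lower and 11.2% higher. OVSAHO minus KURAMOCHI, the log2 fold changes differed by -1.63 for INSIG1, -0.998 for STARD4 and -0.83 for SREBF1 at its brighter probe. For INSIG1 and STARD4 the contrast was positive in both lines and smaller in OVSAHO. For SREBF1 it was negative in both lines and more so in OVSAHO, and its dimmer probe gave 0.78, the opposite sign.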

How the results depend on the processing

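The direction and the side of the threshold held in 537 of 564 values of single genes recomputed under the alternatives, while 17 no longer passed, 9 newly passed and 1 reversed. Many of the alternatives leave the difference of a gene as it was and alter only its spread or adjustment. In those its direction could not change. The reversed value is SREBF1 with L-778123, where the difference between lines was -0.14 (adjusted p = 0.121) for the median over probes. The count of genes higher in OVSAHO was 0 with normexp, 2 at a 1.5-fold threshold and 4 with no fold threshold, and it ranged from 0 to 1 when single arrays were left out. The count lower in OVSAHO was 0 for the median over probes, and the count lower in KURAMOCHI was 1 with no fold threshold. Between lines with simvastatin, the count higher was 1 at 1.5-fold and with no fold threshold, and the count lower was 5 with no fold threshold. With L-778123 the count higher was 1 at 1.5-fold and 2 with no fold threshold. The 14 neighbours that differ kept within 1.5 times that count under every alternative run. The fall of SREBF1 in KURAMOCHI did not pass with no filter (adjusted p = 0.122), with its groups fitted alone (0.0692) or with the methods' two-way analysis of variance and Tukey's test (0.146). Deviations of arrays with the same replicate number correlated at 0.00085 to 0.056. These values show no large shared deviation, but they cannot tell whether arrays with the same number share an origin. With the number as a replicate block the counts of genes called were as without it and 13 pairs of neighbours differed. The SREBF1 fall in KURAMOCHI then had an adjusted p of 0.0587 in limma. Leaving out the filter moved the median of all probes in OVSAHO from 0.014 to 0.21, with no shift of the 6 genes themselves. Scaling to the 75th percentile over all spots, added after the data had been seen, took only INSIG2 in KURAMOCHI past the test (0.26, adjusted p = 0.0473). The fit to the groups compared alone was not run for the difference between the drug contrasts of the lines, which needs all 4. With 2 arrays per group the spread rests on few arrays.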
